A study of Mus musculus with 4 samples.

Results

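The lysosomal hydrolases and membrane proteins described here are 42 genes chosen by symbol. Of these, 36 were listed in the deposited table at 1 or both time points, among 14718 genes listed at either. RNA was sequenced from the lesion site of male mice, 3 to 5 months old at injury, that carried human ApoE3 or human ApoE4 in place of the murine gene. All groups received a contusion of the thoracic spinal cord under isoflurane, and tissue was taken at 7 or 21 days post injury (dpi). The 4 groups were thus ApoE3 at 7 dpi, ApoE4 at 7 dpi, ApoE3 at 21 dpi and ApoE4 at 21 dpi, and no sham or uninjured group was analysed here. Each group comprised 3 mice by the study's methods, but the table holds 1 value per gene and group. No test could be run, and every difference below is a description of these group values with no replicate check. Values are FPKM from libraries reduced to 1 common read number, the reads behind each gene are unknown, and ratios are on the log2(FPKM + 1) scale. A fold of 1.3 in either direction was used as the limit for calling a difference.

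The genotype of the columns rests on a reading of the table. Its rows name the comparison as ApoE3 versus ApoE4, and the first value was taken as ApoE3, although the numbering of the columns in the same rows names them in the opposite order. The list of DEGs that accompanies the study names the comparison in the order used here. Under the opposite reading every direction between genotypes below would flip, and the values given for the time course of ApoE3 would be those of ApoE4. APOE itself was listed at 21 dpi only, at an FPKM of 843 in ApoE3 and 1311 in ApoE4, and the table does not separate the human alleles, so it gives no check of the genotype.

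Lysosomes are acidic organelles in which proteases, glycosidases, sulfatases and lipases break down material taken up by endocytosis, phagocytosis and autophagy. The enzymes reach them mostly through mannose 6-phosphate receptors, membrane proteins such as the LAMPs line and stabilise the organelle, and the transcription factor TFEB and its relatives drive many of these genes through a shared E-box element. After contusion of the spinal cord, infiltrating macrophages and resident microglia take up myelin and cell debris, and degrade it in their lysosomes.

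Not every member could be followed. At 7 dpi 34 members were listed and at 21 dpi 33, of which 31 were listed at both. LAMP1, PPT1 and SGSH were listed at 7 dpi only, and PSAP and GRN at 21 dpi only. CTSD, CTSL, CTSS, LGMN, GUSB and ASAH1 were not listed and were not analysed here. Cathepsins D, L and S are abundant proteases in phagocytes, so the protease group below is incomplete.

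Markers of spinal cord cells were present in all groups. The 8 astrocyte markers summed to an FPKM of 17303 in ApoE3 and 16871 in ApoE4 at 7 dpi, and to 10634 and 19379 at 21 dpi, with GFAP the most abundant. The 4 oligodendrocyte markers listed in all groups, out of 8, summed to 126973, 134118, 209998 and 291325 in the same order of groups, and MBP made up most of each sum. The 7 neuron markers listed throughout, out of 8, summed to 4926, 3841, 8323 and 12209, led by SNAP25. The 7 neuron markers were each higher at 21 dpi in both genotypes. Among the oligodendrocyte markers the sum follows MBP, and CLDN11 in ApoE3 was lower, at 286 at 7 dpi and 218 at 21 dpi.

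Most markers of macrophages and fibroblasts were far lower at 21 dpi. The 7 markers of monocytes and macrophages listed in all groups, out of 12, summed to 5445 in ApoE3 and 7102 in ApoE4 at 7 dpi, and to 493 and 951 at 21 dpi. Their most abundant gene, LYZ2, was at 4522 and 6076 at 7 dpi, and at 212 and 426 at 21 dpi, whereas AIF1 in ApoE4 was at 285 and 320. The 7 markers of fibroblasts and pericytes listed throughout, out of 8, summed to 710 and 903 at 7 dpi, led by COL1A1, and to 144 and 108 at 21 dpi, led by DCN in ApoE3 and PDGFRA in ApoE4. DCN went against its list in ApoE3, at 45.7 at 7 dpi and 61.9 at 21 dpi. The 5 microglia markers listed throughout, out of 9, summed to 518 and 591 at 7 dpi, led by FCRLS, and to 276 and 498 at 21 dpi, led by SIGLECH, while P2RY12 and CX3CR1 were not listed. SIGLECH in ApoE4 was higher at 21 dpi, at 237 against 104. No listed marker in these 3 lists was at 0 in any group. The 3 neutrophil markers listed throughout, out of 11, summed to 505, 600.4, 291 and 436 in the same order of groups, led by CSF3R, and S100A9 in ApoE4 was at 8.19 at 7 dpi and 27.4 at 21 dpi. Of 9 markers of T and B cells none was listed at 7 dpi.

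At 21 dpi the groups also stood apart in markers of tissue outside the cord. All 4 listed Schwann cell markers, out of 5, were higher in ApoE3 past the limit, among them NCMAP, at 122 in ApoE3 and 35.7 in ApoE4. All 6 markers of sensory ganglion neurons were listed, and SCN10A was at 20.1 in ApoE3 and 0.15 in ApoE4, while TRPV1 and MRGPRD were listed at 0 in ApoE4. CALCA, the most abundant of the 6, was instead at 702 in ApoE3 and 830 in ApoE4. The 5 listed skeletal muscle markers, out of 6, summed to 32.6 in ApoE3 and 684 in ApoE4, led by TNNT3, and MYH4 was listed at 0 in ApoE3. The 5 listed liver markers, out of 6, summed to 8.88 and 106, with APOA2 the most abundant. At 7 dpi NCMAP was at 10.2 and 7.59, the 4 listed muscle markers summed to 61.4 and 39.7, and no liver marker was listed.

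Levels of the members spanned a wide range. The median member was at an FPKM of 130 in ApoE3 and 133 in ApoE4 at 7 dpi, beside a median over all listed genes of 33.0 in each. At 21 dpi the median member was at 72.4 and 101, beside 26.9 and 36.8 over all genes. At 7 dpi 28 of 34 members lay above the median of all genes in each genotype, and at 21 dpi 26 of 33.

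CST3 and CTSB stood at the top at 7 dpi. CST3 codes for cystatin C, a secreted inhibitor of cysteine proteases, and was at 2305 in ApoE3 and 2456 in ApoE4 at 7 dpi, and at 2939 and 4567 at 21 dpi. CTSB, a cysteine protease of the papain family, was at 1923 and 2330 at 7 dpi, and at 599 and 930 at 21 dpi. The inhibitor and the protease were thus close to each other at 7 dpi and far apart at 21 dpi. Of the summed FPKM of the 31 members listed at both times, CST3 made up 23.2% in ApoE3 and 22.3% in ApoE4 at 7 dpi, and 44.2% and 45.7% at 21 dpi. The share of CTSB was 19.3% and 21.2% at 7 dpi, and 9.0% and 9.30% at 21 dpi.

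PSAP, the precursor of the saposins that present sphingolipids to their hydrolases, was the highest member at 21 dpi, at 5827 in ApoE3 and 8680 in ApoE4. LAMP1, the main glycoprotein of the lysosomal membrane, ranked next after CTSB at 7 dpi, at 754 and 798. At the low end, SGSH, a sulfatase of heparan sulfate, was at 11.2 and 12.9 at 7 dpi. CTSO, a little studied cysteine protease, was at 16.5 and 16.2 at 7 dpi, and at 12.3 and 19.2 at 21 dpi. GLA, which removes terminal galactose from glycolipids, was the lowest member in ApoE3 at 21 dpi, at 6.76, and CTSK the lowest in ApoE4, at 8.43.

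**Figure D1:**
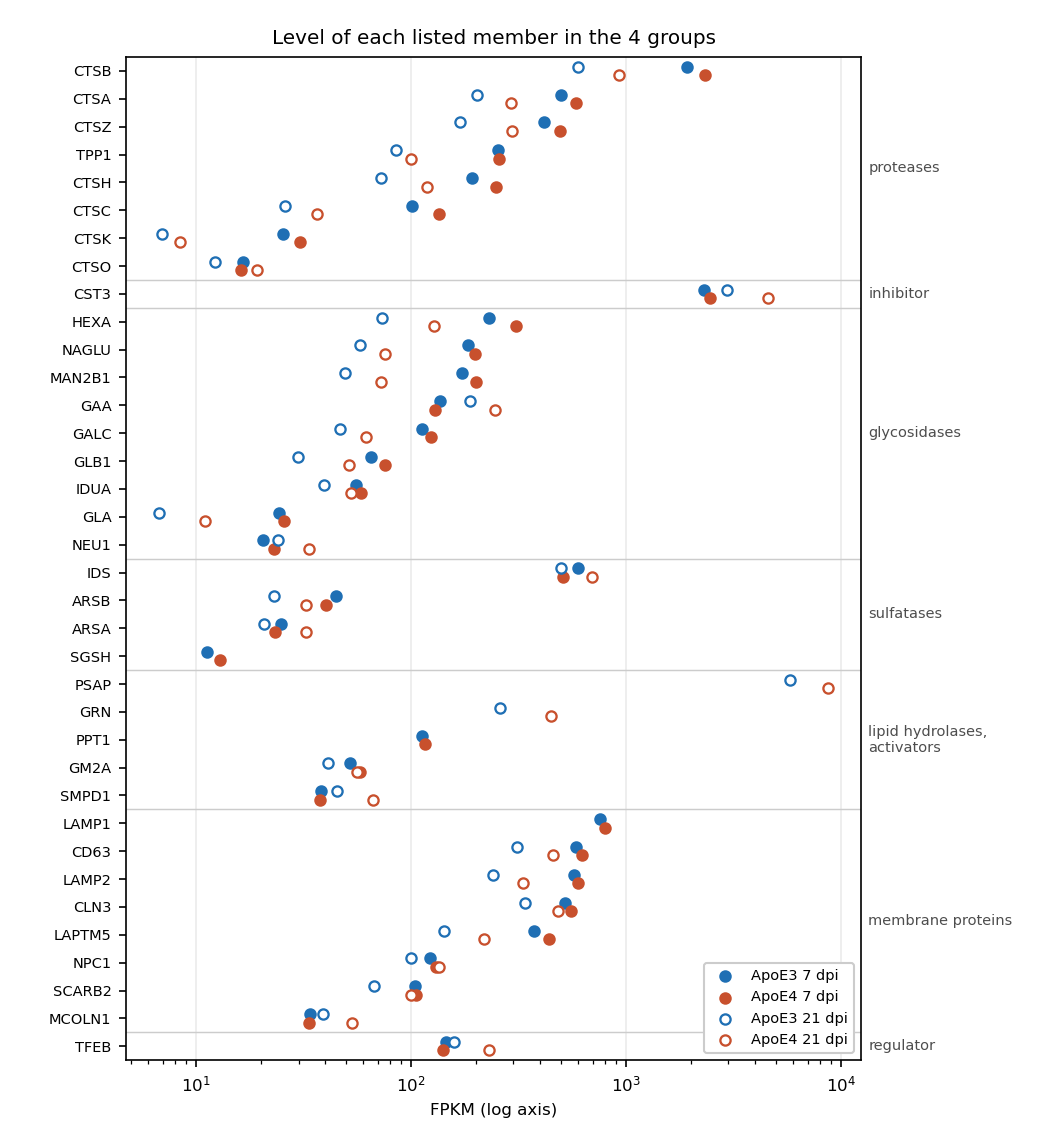
FPKM on a log axis of each of the 36 listed members, ordered by role, with 1 point per group (filled, 7 dpi; open, 21 dpi; blue, ApoE3; red, ApoE4). For most proteases and glycosidases the open points lie to the left of the filled ones, as for CTSB, while CST3, GAA, SMPD1 and TFEB have their open points to the right.

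The largest differences were between the time points. The sources used here do not say whether the 2 time points were normalized together, and the median of all genes listed at both times was not at 0, but at 0.09 in ApoE3 and at 0.53 in ApoE4 for 21 versus 7 dpi. Time changes below are therefore given relative to that median. In ApoE3, 22 of 31 members (71.0%) were at least 1.3-fold lower at 21 dpi, beside 27.7% of all 10876 genes, and 0 were higher, beside 26.6%. In ApoE4, 22 members were lower, beside 28.6% of all genes, and 1 was higher, beside 26.1%; with a pseudocount of 0.1 or 0.01 none was. The median member was at −1.01 in ApoE3 and −0.97 in ApoE4, against 0 for all genes by construction. In bulk tissue, fewer cells of a type and less RNA per cell cannot be told apart.

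Many members differed by much more than the limit. At a fold of 2, a limit chosen after seeing the data, 16 members (51.6%) were lower at 21 dpi in ApoE3, beside 8.51% of all genes, and 15 (48.4%) in ApoE4, beside 9.06%. Without the centring, 21 members were lower and 1 higher in ApoE3, beside 23.6% and 31.3% of all genes. In ApoE4 the same values gave 16 lower and 8 higher, beside 10.9% and 59.0%. The 8 were CST3, NEU1, GAA, IDS, ARSA, SMPD1, MCOLN1 and TFEB, of which GAA alone was past the limit after centring, and ARSA, IDS and NEU1 were then on the other side of 0, at −0.06, −0.08 and −0.002. In ApoE4, IDUA, ARSB, GM2A, SCARB2, CLN3 and NPC1 were lower past the limit only after centring, as was GM2A in ApoE3.

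The proteases were lower as a group. All 8 listed proteases were below the median of all genes in both genotypes, with medians of −1.57 in ApoE3 and −1.72 in ApoE4, and 7 of them were at least 2-fold lower in each, beside 8.51% and 9.06% of all genes. CTSC, a dipeptidyl peptidase that activates serine proteases of immune cell granules, was at 101 in ApoE3 and 135 in ApoE4 at 7 dpi, and at 25.9 and 36.7 at 21 dpi. Its ratios of −2.02 and −2.38 were the lowest of any member in each genotype. CTSK, a cysteine protease known for cleaving collagen in bone resorption, was at 25.4 and 30.3 at 7 dpi, and at 6.94 and 8.43 at 21 dpi.

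CTSB, with the levels given above, was at −1.77 and −1.85. TPP1, a tripeptidyl peptidase whose loss causes a form of neuronal ceroid lipofuscinosis, was at 254 and 256 at 7 dpi, and at 85.1 and 101 at 21 dpi. CTSH, an aminopeptidase, went from 193 and 248 to 72.4 and 119. These proteases were between 2.81-fold and 3.65-fold lower after centring. CTSA, the carboxypeptidase that protects GLB1 and NEU1 in a complex, was at 501 and 583 at 7 dpi, and at 202 and 293 at 21 dpi. CTSZ, a carboxypeptidase of the papain family, was at 417 and 492 at 7 dpi, and at 169 and 295 at 21 dpi. CTSO was the exception, at −0.49 in ApoE3, past the limit, and at −0.29 in ApoE4, short of it.

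CST3, the inhibitor of several of these proteases, did not move with them. Its ratios of 0.26 in ApoE3 and 0.37 in ApoE4 lay above the median of all genes and within the limit, while as deposited it was at 0.35 and, past the limit, at 0.89. Of 6 other cystatins, 3 were listed. CSTB was at −0.52 and −0.70, CST6 at 1.56 and 1.15, and CST7 at 0.00 and 0.32.

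The glycosidases divided. Of 9 listed, 7 were lower past the limit in both genotypes, beside 27.7% of all genes in ApoE3 and 28.6% in ApoE4. Of these 7, 6 were at least 2-fold lower in each, beside 8.51% and 9.06%. MAN2B1, which trims mannose from glycoproteins, was at 173 in ApoE3 and 200 in ApoE4 at 7 dpi, and at 49.5 and 72.7 at 21 dpi, a ratio of −1.87 and −1.97. HEXA, the alpha subunit of the hexosaminidase that degrades GM2 ganglioside, was at 231 and 308 at 7 dpi, and at 73.0 and 128 at 21 dpi. NAGLU, an enzyme of heparan sulfate breakdown, was at 183 and 199, and then at 57.8 and 76.1. All 3 were more than 3-fold lower after centring in each genotype.

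GLA was at 24.4 in ApoE3 and 25.7 in ApoE4 at 7 dpi, and at 6.76 and 10.96 at 21 dpi. GALC, which degrades the galactolipids of myelin, was at 112 and 124 at 7 dpi, and at 46.9 and 61.6 at 21 dpi. GLB1, the beta-galactosidase, was at 64.9 and 75.9, and then at 29.8 and 51.7. IDUA, which acts on dermatan and heparan sulfate, was lower by less, at −0.56 and −0.67. GAA, which degrades glycogen, went against these enzymes. It was at 137 and 129 at 7 dpi, and at 188 and 246 at 21 dpi, with ratios of 0.37 in ApoE3, just short of the limit, and 0.39 in ApoE4, just past it. The second fell short of the limit with either smaller pseudocount. NEU1, a sialidase, was at 20.5 and 23.0 at 7 dpi, and at 24.1 and 33.5 at 21 dpi.

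Sulfatases and lipid enzymes differed less between the times. ARSB, which acts on dermatan and chondroitin sulfate, was at 44.8 in ApoE3 and 40.1 in ApoE4 at 7 dpi, and at 23.1 and 32.3 at 21 dpi, with ratios of −1.01 and −0.83. IDS, an enzyme of dermatan and heparan sulfate breakdown, was at 600 and 511 at 7 dpi, and at 498 and 696 at 21 dpi. ARSA, which acts on the sulfatide of myelin, was at 24.95 and 23.3, and then at 20.7 and 32.5. After centring, IDS and ARSA were within the limit in both genotypes. Among the lipid enzymes and activators listed at both times, SMPD1, the acid sphingomyelinase, was at 0.15 and 0.26, and GM2A, the activator that lifts GM2 for HEXA, at −0.43 and −0.57.

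Of 7 membrane proteins listed at both times, 5 were lower past the limit in ApoE3 and 6 in ApoE4, beside 27.7% and 28.6% of all genes. As deposited the 5 in ApoE3 were the same, but in ApoE4 only LAMP2, LAPTM5 and CD63 were past the limit, with SCARB2 at −0.08, CLN3 at −0.21 and NPC1 at 0.05. LAPTM5, a lysosomal membrane protein of haematopoietic cells, was at 373 in ApoE3 and 441 in ApoE4 at 7 dpi, and at 143 and 220 at 21 dpi. LAMP2, needed for fusion of lysosomes with autophagosomes, was at 572 and 597 at 7 dpi, and at 241 and 333 at 21 dpi. Both were at least 2-fold lower after centring. CD63, a tetraspanin of late endosomes, was just short of a 2-fold difference, at −0.99 and −0.97.

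SCARB2, a receptor of the lysosomal membrane, was at −0.71 and −0.60, and CLN3, a membrane protein affected in juvenile ceroid lipofuscinosis, at −0.71 and −0.73. NPC1, which exports cholesterol, was at −0.38 in ApoE3, just short of the limit, and at −0.47 in ApoE4, past it. With either smaller pseudocount it was at −0.39 in ApoE3, past the limit. MCOLN1, the calcium channel of the lysosomal membrane, was at 33.8 and 33.7 at 7 dpi, and at 39.1 and 53.0 at 21 dpi. TFEB was at 145 and 141 at 7 dpi, and at 159 and 231 at 21 dpi. Relative to all genes, MCOLN1 was at 0.12 and 0.11 and TFEB at 0.04 and 0.18. As deposited MCOLN1 was at 0.20 and 0.64 and TFEB at 0.13 and 0.71, the second of each past the limit. These are RNA levels, the activity of TFEB was not measured, and its part in the changes of the hydrolases was not tested.

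**Figure D2:**
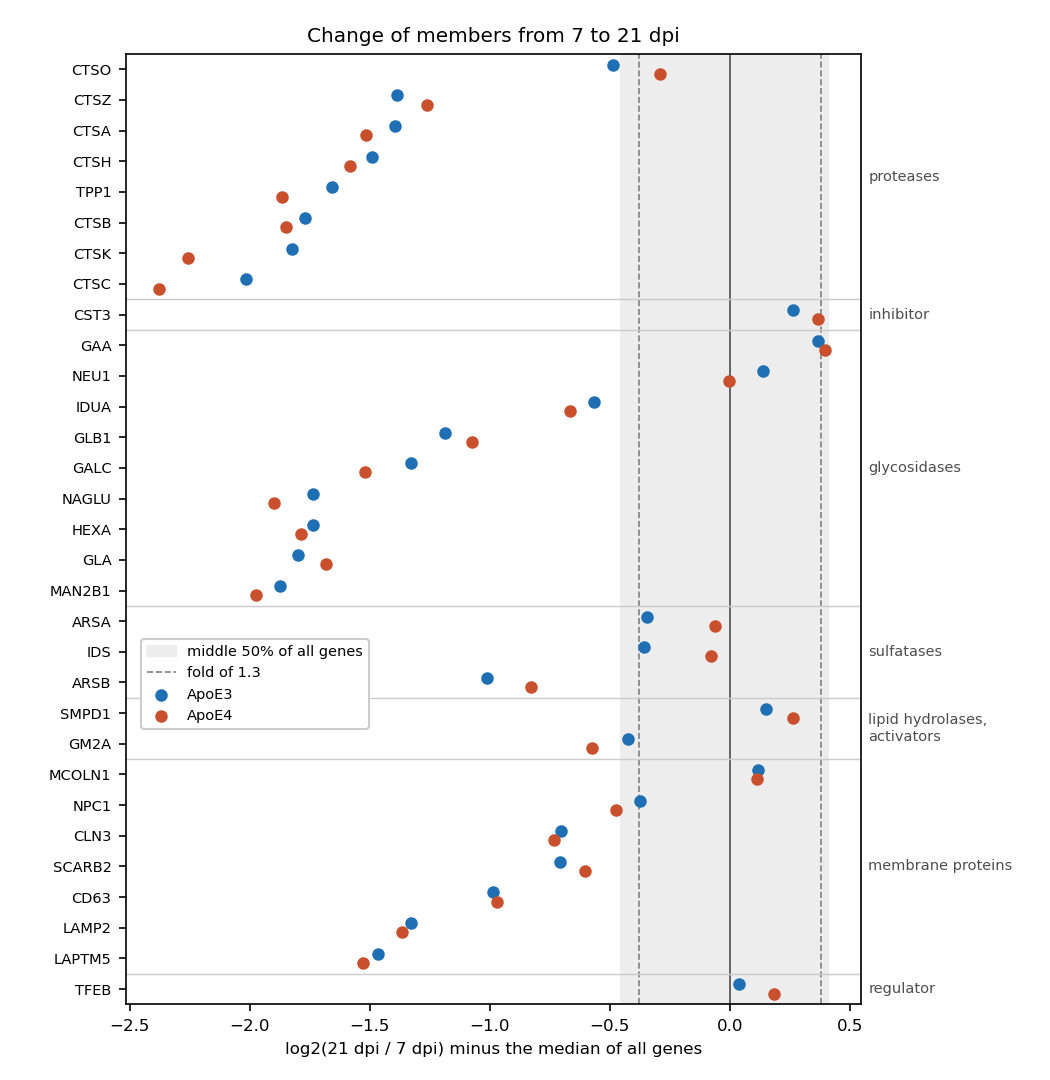
Log2 ratio of 21 to 7 dpi minus the median of all genes for the 31 members listed at both times, in ApoE3 (blue) and ApoE4 (red), ordered by role. The grey band holds the middle of all genes, from the lower of the first quartiles to the higher of the third quartiles over both genotypes, and dashed lines mark a fold of 1.3. CTSC, at −2.02 and −2.38, lies at the left end, and GAA, at 0.37 and 0.39, at the right.

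The order of the members was alike in the 2 genotypes. Across 31 members the time changes of ApoE3 and ApoE4, which share no group, had a Pearson r of 0.98 and a Spearman rho of 0.99. Across all 10876 genes the same values were 0.84 and 0.83. A correlation also depends on the spread and the level of the genes. In ApoE3 at 7 dpi the median member was at an FPKM of 130, beside 33.0 over all genes, so these values are not like for like. Genes are not independent replicates, the points share their time points and processing, and no p is given. Which gap between genotypes was largest depended on the centring. On centred ratios it was that of CTSK, at −1.82 in ApoE3 and −2.26 in ApoE4, but as deposited CTSK had the smallest, at −1.73 in each, and ARSA the largest, at −0.26 and 0.47. The median gap was 0.11 over the members and 0.19 over all genes after centring, and 0.40 and 0.44 as deposited.

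Markers of macrophages moved with the hydrolases. Relative to all genes, the 7 markers listed in all groups had medians of −3.33 in ApoE3 and −2.57 in ApoE4, with LYZ2 at −4.50 and −4.36. The 5 microglia markers had medians of −0.72 and −0.69, and the 8 astrocyte markers −0.51 and −0.27, the second being 0.25 as deposited. The 7 markers of fibroblasts and pericytes had medians of −2.11 and −3.59. Neuron markers went the other way, with medians of 0.76 and 1.28. The 2 Schwann cell markers listed at both times had medians of 5.59 and −0.01, and the 4 skeletal muscle markers −0.77 and 2.98. The part of any of these lists in the differences of the members was not tested.

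Other lysosomal genes were counted from lists drawn up by function, on centred ratios. Of 26 other hydrolases and cofactors listed at both times, out of 32 symbols, 20 were lower past the limit in ApoE3 and 21 in ApoE4, beside 27.7% and 28.6% of all genes. In each genotype 2 were higher, beside 26.6% and 26.1%, and the medians were −0.76 and −0.93. As deposited the medians were −0.67 and −0.41, with 18 genes below 0 and 8 above in ApoE4. ACP5, the tartrate-resistant phosphatase of osteoclasts and activated macrophages, stood far below the rest. It was at 229 in ApoE3 and 360 in ApoE4 at 7 dpi, and at 7.74 and 20.1 at 21 dpi. Of 10 other genes of osteoclasts and bone, 3 were listed at both times. MMP9 was at 3.65 and 4.91 at 7 dpi and at 11.5 and 20.0 at 21 dpi, SP7 at 3.47 and 3.80 and then at 3.69 and 8.58, and DMP1 at 5.66 and 5.46 and then at 5.17 and 9.81.

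Of 16 other membrane proteins listed at both times, out of 24, 7 were lower past the limit in ApoE3, beside 27.7% of all genes, and 11 in ApoE4, beside 28.6%. The same list had 2 higher in ApoE3 and 1 in ApoE4, with medians of −0.35 and −0.53. As deposited the medians were −0.26 and −0.004, and in ApoE4 8 genes were below 0 and 8 above. Only SLC17A5, GPNMB and SLC29A3 were then lower past the limit in ApoE4, beside 10.9% of all genes. GPNMB, a glycoprotein of phagocytes, was at 892 and 1098 at 7 dpi, and at 44.8 and 65.3 at 21 dpi. LAMP5, a neuronal relative of the LAMPs, was at 214 and 184, and then at 543 and 684. CD68, the LAMP relative used to mark macrophages, was listed at 7 dpi only, at 1309 and 1696. The receptors and adaptors that sort lysosomal enzymes gave 4 lower of 8 in each genotype, beside 27.7% and 28.6% of all genes. There 1 was higher in ApoE3, and the medians were −0.46 and −0.39. As deposited the medians were −0.37 and 0.13, with 4 genes below 0 and 4 above in ApoE4. IGF2R, the large mannose 6-phosphate receptor, was at −1.53 and −1.77. As deposited it alone of this list was lower past the limit in ApoE4, at −1.24.

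Most subunits of the V-ATPase, a proton pump of lysosomes and of other compartments, did not follow the hydrolases. The values do not separate these compartments. Of 14 V-ATPase subunits listed at both times, out of 20, 8 were higher past the limit in ApoE3 and 7 in ApoE4, beside 26.6% and 26.1% of all genes. In each genotype 3 were lower, beside 27.7% and 28.6%, and the medians were 0.43 and 0.34. As deposited the medians were 0.52 and 0.87. ATP6V0C, the proteolipid that forms the rotor ring and the most abundant subunit, was at 3383 and 3335 at 7 dpi, and at 5132 and 6803 at 21 dpi. ATP6V0D2, a subunit isoform known from osteoclasts and macrophages, was at 52.8 and 65.6 at 7 dpi, and at 1.62 and 3.66 at 21 dpi. ATP6V1G2, a neuronal isoform, was at 278 and 243, and then at 703 and 838. The isoforms of 1 complex thus differed in opposite directions.

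**Figure D3:**
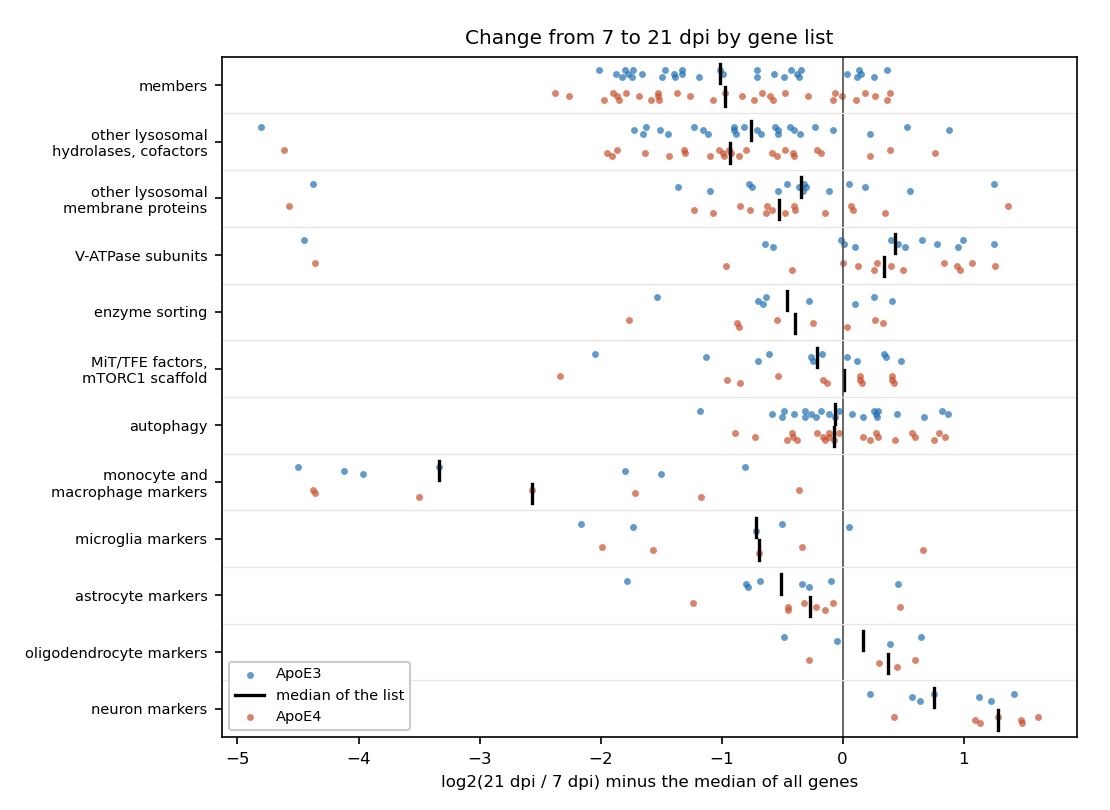
Log2 ratio of 21 to 7 dpi minus the median of all genes, with 1 point per gene listed at both times in ApoE3 (blue) and ApoE4 (red) and a black bar at the median of each list. Medians are −1.01 and −0.97 for the members, 0.43 and 0.34 for V-ATPase subunits, −3.33 and −2.57 for markers of monocytes and macrophages, and 0.76 and 1.28 for neuron markers.

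Between genotypes at 7 dpi the members differed little. Of 34 members, 2 were lower in ApoE3 past the limit (5.88%), beside 4.76% of all 14123 genes, and 0 were higher, beside 3.78%. The share lower in ApoE3 was near that of all genes. The members past the limit were CTSC, at 101 in ApoE3 and 135 in ApoE4, and HEXA, at 231 and 308, each with a ratio of −0.41. CTSH, at 193 and 248, was just short of it at −0.36. With differences of any size counted, the members leaned 1 way, with 26 of 34 lower in ApoE3 and a median of −0.10. Of all genes, 49.5% were below 0, with a median of 0.00.

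By role, 7 of 8 proteases were lower in ApoE3, with a median of −0.24, and CTSO was the other, at 0.03. Of 9 glycosidases 8 were lower, with a median of −0.14, and GAA was at 0.08. The sulfatases were at 0.23 for IDS, 0.15 for ARSB, 0.09 for ARSA and −0.19 for SGSH. IDS, the member with the highest ratio, was at 600 in ApoE3 and 511 in ApoE4. TFEB was at 0.04. Of 31 other hydrolases listed at 7 dpi, 25 were lower in ApoE3, with a median of −0.18, and ACP5 was past the limit at −0.65. CREG1, a glycoprotein of endosomes and lysosomes, came to −0.38 and was past the limit only after centring.

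Some lists of cell type markers leaned by genotype at 7 dpi, with few markers past the limit. The 10 listed markers of monocytes and macrophages, out of 12, summed to 5496 in ApoE3 and 7172 in ApoE4, and 7 of them were lower in ApoE3, 4 past the limit, with a median of −0.15. All 8 markers of fibroblasts and pericytes were lower in ApoE3, 2 past the limit, with a median of −0.33. All 8 neuron markers were higher in ApoE3, 1 past the limit, with a median of 0.26 and sums of 5764 and 4538. The 5 listed motor neuron markers, out of 6, were higher too, 2 past the limit, with sums of 152 and 132 and PRPH the most abundant. Other lists were split. Of 6 microglia markers 3 were lower and 3 higher, with FCRLS alone past the limit at −0.39, and of 8 astrocyte, 5 oligodendrocyte and 6 endothelial markers none was past it in either direction. Of 4 neutrophil markers listed at 7 dpi, 1 was lower and 2 were higher past the limit. The endothelial markers summed to 241 and 240, led by FLT1. Their part in the lean of the members was not tested.

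At 21 dpi the whole table leaned toward ApoE4. The median of all 11470 genes was −0.42 and 93.8% of genes were lower in ApoE3. As deposited, all 33 members were lower in ApoE3 and 31 were past the limit (93.9%), beside 58.9% of all genes, and 0 were higher, beside 2.01%. The exceptions to the limit were CTSK and TPP1, at −0.25 and −0.24. Relative to the median of all genes, 1 member was lower past the limit (3.03%), beside 8.06% of all genes, and 0 were higher, beside 7.46%. The share was thus below that of all genes, and the median member was at −0.11.

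The member past the limit after centring was CTSZ, at 169 in ApoE3 and 295 in ApoE4. With either smaller pseudocount it came to −0.36, and no member was past the limit. HEXA, at 73.0 and 128, came to the same rounded value of −0.38 but was just short of the limit. GRN, the precursor of granulins and a secreted partner of PSAP in lysosomes, was at 260 and 449 and at −0.37. GLB1, at 29.8 and 51.7, was at −0.35. At the other end TPP1 was at 0.19 and CTSK at 0.18, and PSAP was at −0.15. NAGLU, GAA, GALC and IDUA, all past the limit as deposited, were between 0.01 and 0.04 after centring.

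Markers again differed between the genotypes. After centring, 7 of 8 listed markers of monocytes and macrophages were lower in ApoE3 at 21 dpi, 5 past the limit, with a median of −0.54 and sums of 1411 in ApoE3 and 2761 in ApoE4, in which SPP1 was the most abundant, at 918 and 1809. All 6 listed microglia markers were lower, 2 past the limit, with a median of −0.26. Of 8 astrocyte markers 7 were lower, 2 past the limit, and the 6 listed oligodendrocyte markers were all lower and within it. Neuron markers were split, with 4 of 7 lower and 1 past the limit. Of 5 listed motor neuron markers 4 were lower, 2 past the limit, and 1 was higher past it. All 4 listed neutrophil markers were lower, 2 past the limit, and all 5 listed genes of osteoclasts and bone, 4 past it. The 5 listed endothelial markers were all higher, 1 past the limit. Markers of fibroblasts and pericytes, lower in ApoE3 at 7 dpi, were higher at 21 dpi for 6 of 7 listed, 5 of them past the limit, with a median of 0.67 and DCN at 61.9 in ApoE3 and 9.37 in ApoE4. The Schwann cell, sensory ganglion, muscle and liver markers described above had medians of 3.32, 2.33, −3.85 and −2.32. The part of any of these in the ratios of the members was not tested, and with 1 value per group a difference in the tissue taken and a difference between genotypes cannot be told apart.

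**Figure D4:**
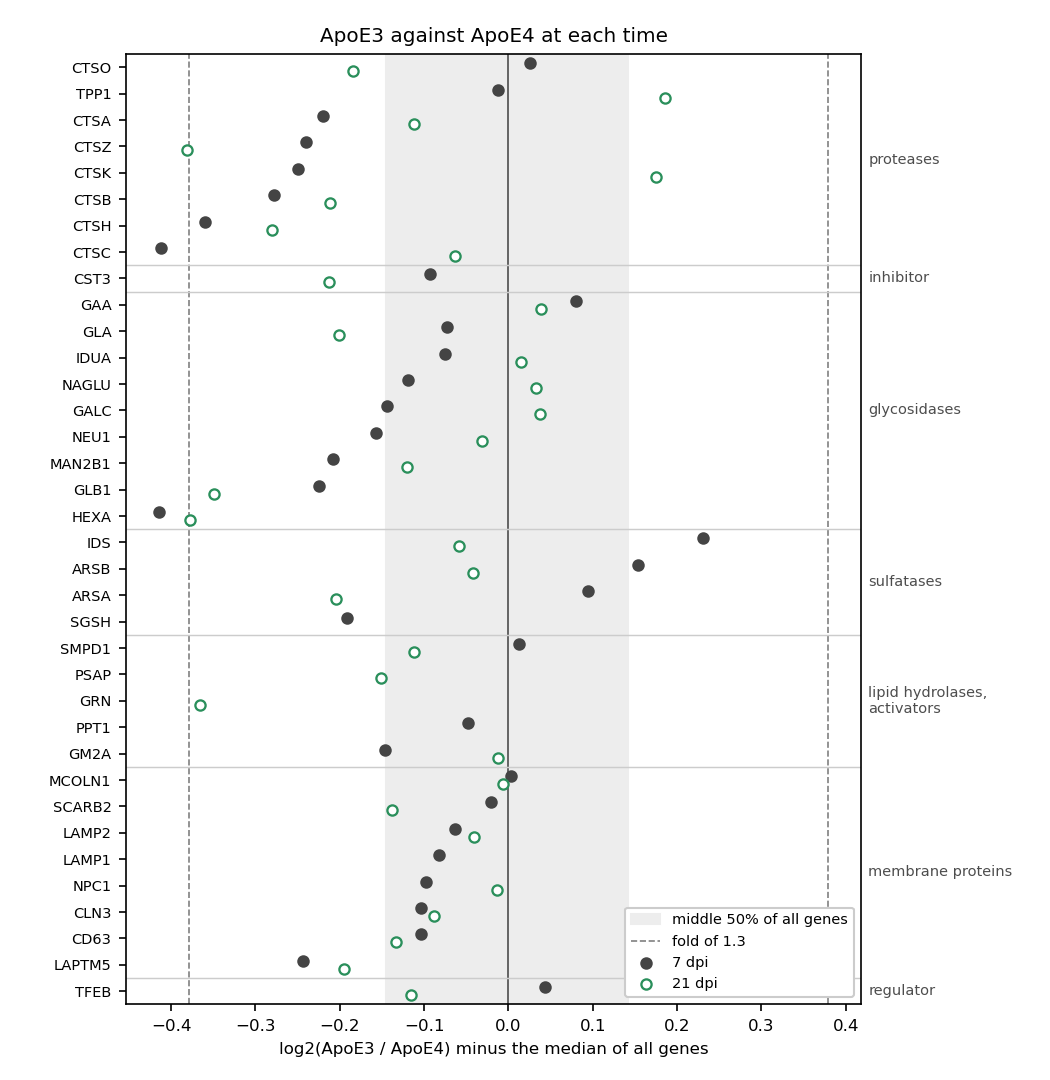
Log2 ratio of ApoE3 to ApoE4, centred on all genes, at 7 dpi (filled) and 21 dpi (open) for the listed members, ordered by role. The grey band holds the middle of all genes over both times and dashed lines mark a fold of 1.3. CTSC and HEXA lie past the left line at 7 dpi and CTSZ at 21 dpi, and no member lies past the right line.

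Set side by side over the 31 members listed at both times, the ratio was below the median of all genes at both times for 18, above it at both for 1, GAA, and on opposite sides for 12. GM2A, NPC1 and MCOLN1, at −0.013, −0.013 and −0.006 at 21 dpi, changed sign with either smaller pseudocount, so this split depends on it. HEXA was at −0.41 at 7 dpi and −0.38 at 21 dpi, and CTSH at −0.36 and −0.28. CTSC went from −0.41 to −0.06 and CTSK from −0.25 to 0.18. Across these members the ratios at the 2 times, which share no group, had a Pearson r of 0.34 and a Spearman rho of 0.30. Across all genes listed at both, the same values were −0.07 and −0.06, under the limits given for the time changes.

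The promoters of members were searched for the E-box that TFEB and its relatives bind. RefSeq windows of 300 bases, from 250 before to 50 after the start of each gene on GRCm38.p6, were given for 38 of 42 members; CTSB, CTSH, ASAH1 and NPC1 were not matched. The 6 letters CACGTG, which read the same on both strands, were found for 13 of 38 members (34.2%), beside 8.09% of all 27025 genes and 7.15% of all 32851 windows. The 8 letters TCACGTGA, which hold the shorter motif and also read the same on both strands, were found for 5 members (13.2%), namely CTSA, CTSD, GLA, CLN3 and MCOLN1, beside 1.12% of all genes and 0.974% of all windows. A match is a description of letters and not a binding site, and no match says only that the letters are not in the window.

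Stretches of 60 bases around the motif are shown for members that were lower at 21 dpi (CTSA, GLA, NAGLU, GLB1 and CLN3), for members that were not (GAA and MCOLN1), and for LAMP1, whose window holds 4 copies. Each is given 5′ to 3′ on the strand of its gene, and capitals mark CACGTG, or TCACGTGA where the longer motif was found. They lie at chr2:164833742-164833801 (CTSA, plus strand), chrX:134601184-134601243 (GLA, minus strand), chr11:101069994-101070053 (NAGLU, plus strand), chr9:114401003-114401062 (GLB1, plus strand), chr7:126583339-126583398 (CLN3, minus strand), chr11:119267796-119267855 (GAA, plus strand), chr8:3500434-3500493 (MCOLN1, plus strand) and chr8:13159096-13159155 (LAMP1, plus strand).
CTSA: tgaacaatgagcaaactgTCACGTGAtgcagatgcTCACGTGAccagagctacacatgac
GLA: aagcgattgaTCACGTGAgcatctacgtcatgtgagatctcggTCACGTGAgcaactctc
NAGLU: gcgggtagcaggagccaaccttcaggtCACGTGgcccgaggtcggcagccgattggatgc
GLB1: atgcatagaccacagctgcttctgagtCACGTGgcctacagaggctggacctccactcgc
CLN3: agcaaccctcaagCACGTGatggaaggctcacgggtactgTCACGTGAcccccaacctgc
GAA: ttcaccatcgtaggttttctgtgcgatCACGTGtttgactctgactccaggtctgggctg
MCOLN1: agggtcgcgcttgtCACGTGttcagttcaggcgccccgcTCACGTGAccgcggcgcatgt
LAMP1: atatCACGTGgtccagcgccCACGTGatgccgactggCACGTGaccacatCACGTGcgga

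Members with and without these letters had like time changes. The 8 members with CACGTG and values at both times had medians of −0.95 in ApoE3 and −0.90 in ApoE4, with a range from −1.80 to 0.37 in ApoE3. The 20 without it had medians of −1.0 and −0.90, with a range from −2.02 to 0.26 in ApoE3. CTSA and MCOLN1 both hold the longer motif, and were at −1.40 and 0.12 in ApoE3. The ranges overlapped. CTSC and HEXA, at −2.02 and −1.74 in ApoE3, had no match in their windows. GLA and NAGLU, at −1.80 and −1.74, had 1, and CTSB and CTSH, also low in time, had no window. A part of the motif in the time changes was not tested.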

How the data were processed

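RNA from the lesion site of the spinal cord was measured in 4 groups of male mice, ApoE3 and ApoE4 at 7 and 21 dpi. By the methods and the submitters' processing notes, the authors down-sampled all libraries to 1 read number and used STAR 2.5.4b, bowtie2, SAMtools 0.1.7 and Cuffdiff 1.3.0. One replicate aligned less well than the others, and its group is not named in the text read here. The genome build and annotation are not given in the sources used here. The deposited values are FPKM plus 1, with 1 value per gene and group, and 1 was subtracted. The table also holds the authors' fold changes, p-values and q-values, and a second deposited table their DEGs with log2 values. None of these values was used. From the list of DEGs that accompanies the study only the order of the named comparison was read. The table gives no reads per gene, so no counting error is given. At each time 2 symbols on 2 rows were left out.

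Ratios were log2 of (FPKM + 1), computed with Python 3.11.15, numpy 2.4.6 and pandas 2.3.3, and checked on simulated data. With 1 value per group no test was run, and called means a fold of at least 1.3. Centred ratios are minus the median ratio over all genes whose mean FPKM was 1 or more. Alternatives were pseudocounts of 0.1 and 0.01, members with a mean FPKM of at least 10, folds of 1.2 and 1.5, and centring; a fold of 2, and the smaller pseudocounts on centred ratios, were added after seeing the data. All 42 members are accounted for, and the members named with values are those past the limit in any comparison, the highest and lowest by level, and those beside the limit. Of the other lists only some genes are named with values, and the rest are in the counts, sums and medians. Members and lists were chosen with earlier results of these data known. Promoter windows were taken from RefSeq. An identity between cathepsin proteins was planned and not run.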

Additional observations from a re-analysis of the deposited data

How the results depend on the processing

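Over all members and comparisons, 1030 alternative values were computed, of which 942 stayed on the same side of the limit, 65 came short of it, 16 passed it and 7 past it changed sign. All 7 came from centring. At 21 dpi, ApoE3 versus ApoE4, IDUA came to 0.0150, NAGLU to 0.0327, GAA to 0.0391 and GALC to 0.0372, and for 21 versus 7 dpi in ApoE4, NEU1 came to −0.00207, IDS to −0.0804 and ARSA to −0.0606. Under centring 4 values within the limit changed sign too: CTSK to 0.18 and TPP1 to 0.19 at 21 dpi, and, in ApoE4 over time, CTSO to −0.29 and NPC1 to −0.47, the last then past the limit. Centring subtracts a median of −0.42 and of 0.53 in these comparisons. Pseudocounts of 0.1 and 0.01 changed no call of a member as deposited. On centred ratios, an alternative added after seeing the data, they changed 3. CTSZ at 21 dpi went from −0.381 to −0.362 and −0.359, and GAA over time in ApoE4 from 0.395 to 0.369 and 0.365, both then short of the limit, and NPC1 over time in ApoE3 from −0.377 to −0.388 and −0.389, then past it. The centred number lower in ApoE3 at 21 dpi thus went from 1 to 0 at both pseudocounts, the number higher over time in ApoE4 from 1 to 0, and the number lower over time in ApoE3 from 22 to 23. GM2A, NPC1 and MCOLN1 at 21 dpi, ApoE3 versus ApoE4, all within the limit, changed sign, to between 0.002 and 0.010.

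Of the counts, the number lower in ApoE3 at 7 dpi was 2, and 4 at a fold of 1.2 or 0 at 1.5. At 21 dpi it was 31, and 11 at a fold of 1.5 or 1 after centring, with the median of the members going from −0.54 to −0.11. For 21 versus 7 dpi in ApoE3, the number higher was 1, and 2 at a fold of 1.2, 0 at 1.5 and 0 after centring. In ApoE4 it was 8, and 5 at a fold of 1.5 or 1 after centring, with the median going from −0.44 to −0.97. A count at another fold differs by construction. The shares of all genes at folds of 1.2 and 1.5 were not computed, so the counts at these folds are no result about the members. The number lower by a fold of 2, added after seeing the data, was 16 in ApoE3 and 15 in ApoE4, and 16 in each at both other pseudocounts. No paired analysis was possible because each group has 1 value. All libraries had 1 common read number, but reads per gene are not given, so the counting error of each value is unknown.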

Other observations

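Autophagy is the route that delivers cytoplasm to lysosomes. Of 23 of its genes listed at both times, out of 27, 5 were lower past the limit and 4 higher in ApoE3, and 6 were lower and 6 higher in ApoE4, with centred medians of −0.06 and −0.07. These counts are on centred ratios, for which the shares of all genes were 27.7% lower and 26.6% higher in ApoE3. In ApoE4 the shares were 28.6% and 26.1%. As deposited the medians were 0.03 and 0.45, with 2 genes below 0 and 21 above in ApoE4. SQSTM1, the receptor that ties ubiquitinated cargo to autophagosomes, was at an FPKM of 512 in ApoE3 and 491 in ApoE4 at 7 dpi, and at 995 and 1191 at 21 dpi. ULK2, a kinase that starts autophagy, was at 100.2 and 80.6, and then at 46.5 and 62.5. As deposited its ratio in ApoE4, −0.36, was the lowest of this list and short of the limit.

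Of the factors related to TFEB and the proteins that recruit mTORC1 to lysosomes, 12 of 17 were listed at both times. Their centred medians were −0.21 in ApoE3 and 0.01 in ApoE4. As deposited the medians were −0.12 and 0.53, with 4 genes below 0 and 8 above in ApoE4. After centring TFE3, the most abundant, was at −0.61 and −0.54 and MITF at −0.70 and −0.95. As deposited TFE3 was at −0.52 and −0.01, and MITF at −0.61 and −0.43. FNIP2, a partner of folliculin, was the lowest, at 110 and 133 at 7 dpi, and at 27.5 and 37.2 at 21 dpi.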
